A study of Homo sapiens with 42 samples.

Results

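The effect of MS41 on the transcriptome of MV4;11 leukaemia cells was compared between 6 and 24 h of treatment. The quantity reported is the change of the effect, the log2 ratio of MS41 to DMSO at 24 h minus the same ratio at 6 h, so that a gene held equally high or equally low at both times has a change of 0. It rests on 12 of the 42 samples of the series: wild-type (WT) MV4;11 cells treated with 100 nM MS41 for 6 h, with DMSO for 6 h, with 100 nM MS41 for 24 h and with DMSO for 24 h, 3 libraries in each group. Cells given 100 nM MS41N or 100 nM PFI-6 for 6 or 24 h, again 3 libraries per group, served as further references. The treatment protocol spells the second compound MS47N where the sample titles have MS41N, and the labels do not say what it is. All groups were grown in the same serum-containing medium, and DMSO is the solvent control. MV4;11 is a single human leukaemia line, and the labels do not say whether the 3 libraries of a group came from separate cultures, so the p-values measure the spread between these libraries, which may be technical.

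MS41 is the ENL degrader of the series, a small molecule made to remove the ENL protein, the product of MLLT1. ENL reads acetylated histones through its YEATS domain and belongs to complexes that release RNA polymerase II from its pause near gene starts. In leukaemias with a rearranged KMT2A (MLL) gene, such as the one MV4;11 was derived from, ENL helps to keep genes of self-renewing progenitors active, among them HOXA9, MEIS1 and MYC. PFI-6 is a small molecule that occupies the YEATS domains of ENL and its relative AF9 without being known as a degrader.

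The 12 libraries held 102345811 to 147528818 counted reads each. Mitochondrially encoded genes took 5.56 to 7.09% of the counts of the MS41 libraries at 6 h and 5.49 to 5.63% of those of the DMSO libraries. At 24 h their share was 5.86 to 7.04% for MS41 and 5.20 to 5.41% for DMSO. The 2nd MS41 library at 6 h (7.09%) and the 3rd at 24 h (7.04%) were the highest of their groups, and the part of this difference in the results was not tested. Counts of replicate libraries differed by more than sampling noise, so none was a copy of another. Of the defining myeloid markers of the line, all 8 were measured. Their sum at 6 h was 995 to 999 CPM (counts scaled to library size) with MS41 and 1200 to 1221 CPM with DMSO. At 24 h it was 3262 to 3452 CPM with MS41 and 2252 to 2310 CPM with DMSO. LYZ, a member of this list, averaged 492 CPM with MS41 and 560 CPM with DMSO at 6 h. At 24 h LYZ averaged 2642 CPM with MS41 and 1464 CPM with DMSO, most of the sum. The switch of order in the sum therefore follows LYZ and does not describe all 8 markers. Summed markers of stroma were near 0, between 0.0218 and 0.472 CPM in all 12 libraries, and highest in MS41 libraries at 24 h (0.314 to 0.472 CPM). The summed T and NK cell markers stood at 8.04 to 9.33 CPM with MS41 and 6.84 to 8.90 CPM with DMSO at 6 h, and at 13.3 to 14.5 CPM with MS41 and 6.18 to 7.18 CPM with DMSO at 24 h, most of it NKG7, a granule protein gene. The B cell markers summed to 2.95 to 3.58 CPM with MS41 and 2.44 to 2.80 CPM with DMSO at 24 h. The part of these markers in the results was not tested.

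Of 22711 genes tested, 6001 (26.4%) had a change that passed an adjusted p of 0.05 in edgeR's quasi-likelihood test with Benjamini-Hochberg adjustment; such genes are called. The change was above 0 in 2713 of them (11.9% of those tested, called higher) and below 0 in 3288 (14.5%, called lower). It reached 1 on the log2 scale (a factor of 2 in the ratio of MS41 to DMSO) in 668 called genes (2.94%). The median change over all genes tested was -0.01. The called genes were sorted by the effects at both times into growing, fading and reversed ones. Growing effects made up most of them. A rise that grew was seen in 2176 genes (9.58% of those tested), 947 of them already called higher at 6 h and 1229 not called at 6 h, and a fall that grew in 2802 genes (12.3%), 1311 already called lower at 6 h and 1491 not. A rise faded in 257 genes (1.13%), of which 233 were no longer called at 24 h, and a fall faded in 317 genes (1.4%), of which 226 were no longer called. The effect reversed from lower to higher in 162 genes (0.713%) and from higher to lower in 151 (0.665%), with both effects called, and 136 called genes (0.599%) met none of these definitions.

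**Figure D1:**
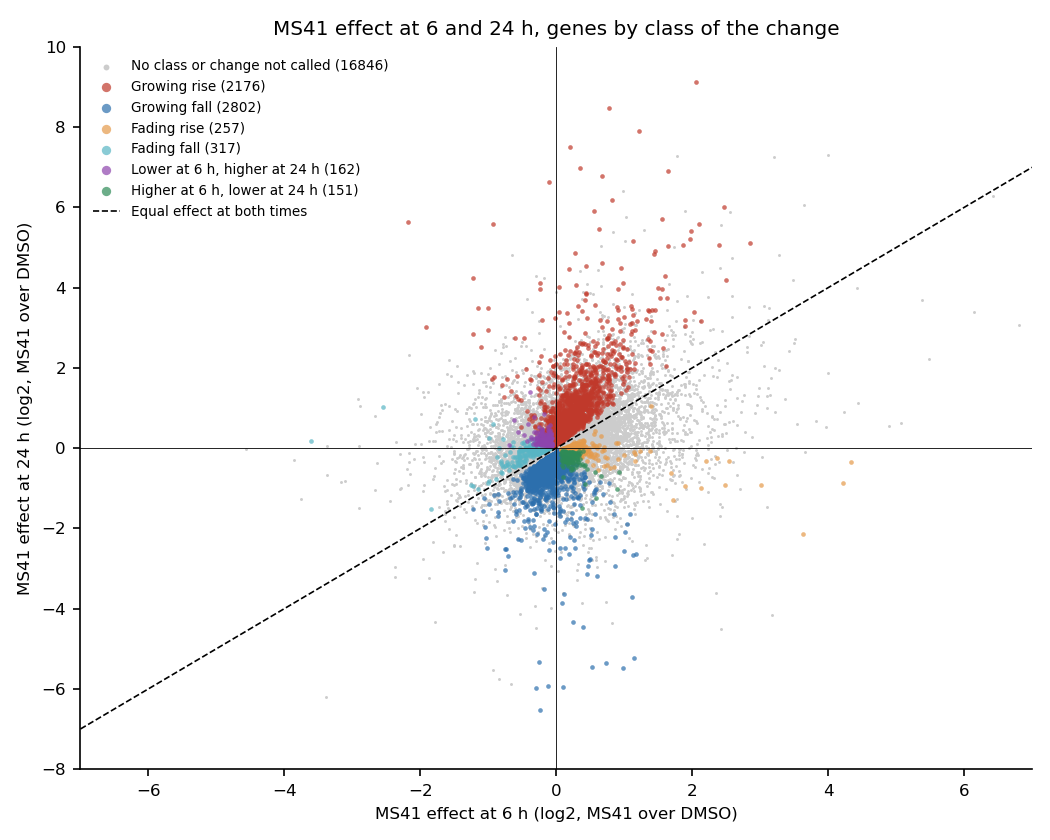
Each point is 1 of the 22711 genes tested, with the MS41 effect at 6 h on the horizontal axis and at 24 h on the vertical axis, both as log2 of MS41 over DMSO and coloured by class of the change. Distance above or below the dashed line is the change of the effect. The 2176 growing rises and 2802 growing falls spread along the vertical axis, and the 162 and 151 reversed genes lie close to 0 in the upper left and lower right of the plot.

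The change can come from the MS41 libraries, from the DMSO libraries or from both, because DMSO cells also differed between the times, with 6863 genes (30.2%) called between 24 and 6 h. In the growing rises the median difference between 24 and 6 h was 0.41 in MS41 cells and -0.03 in DMSO cells (log2), and in the growing falls it was -0.27 in MS41 cells and 0.03 in DMSO cells. In the fading falls it was 0.23 in MS41 cells and 0.02 in DMSO cells, and in the genes that reversed from lower to higher 0.33 and 0.01. A DMSO median near 0 joined genes that moved up and genes that moved down. DMSO cells were called higher at 24 h for 593 and lower for 672 of the 2176 growing rises. For the 2802 growing falls the counts were 891 and 615. They were 96 and 91 for the 317 fading falls, and 59 and 54 for the 162 genes reversed from lower to higher. Over all 22711 genes tested they were 3795 and 3068. The remaining classes had DMSO medians farther from 0. The fading rises had medians of -0.10 in MS41 cells and 0.19 in DMSO cells, and the genes that reversed from higher to lower had medians of -0.17 in MS41 cells and 0.22 in DMSO cells. DMSO cells were called higher at 24 h than at 6 h for 153 of the 257 fading rises and 111 of the 151 genes that reversed from higher to lower, against 16.7% of all genes tested. The DMSO levels are part of the change by which the classes were sorted. A rise in DMSO cells lowers the change, so the sorting itself favours these counts.

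The largest growing rises among genes named by class included genes of mature phagocytes. CYBB (chromosome X, 37780011 to 37813461 on GRCh38), the catalytic subunit of the phagocyte NADPH oxidase, stood at 5.92, 6.27 and 6.47 CPM in MS41 libraries at 6 h, against 2.18, 2.40 and 1.79 CPM in DMSO. At 24 h it stood at 81.6, 84.7 and 79.1 CPM with MS41, against 1.64, 1.62 and 1.44 CPM with DMSO. The groups were apart at both times, and the gap was far wider at 24 h. The change was 4.16 ± 0.12 (log2, SE, adjusted p = 3.6e-29). Of its partners in the oxidase, NCF1, which has near-identical pseudogenes that can share its reads, had a change of 1.37, NCF4 of 0.43 and the GTPase RAC2 of 0.23, all called. CYBA, the membrane partner of CYBB, and its chaperone CYBC1 had changes of 0.08 and 0.04 and were not called.

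LSP1, a leukocyte actin-binding protein on chromosome 11 that overlaps PRR33 on the other strand, had 9.35, 9.67 and 9.99 CPM with MS41 and 7.27, 7.24 and 7.03 CPM with DMSO at 6 h. By 24 h it had 56.2, 55.6 and 54.5 CPM with MS41 and 3.63, 4.01 and 3.97 CPM with DMSO. A small separation at 6 h became a wide one, to which a lower DMSO level at 24 h (-0.89) contributed, and the change was 3.41 ± 0.08 (adjusted p = 2.1e-31). How reads were assigned by strand is not stated, so reads of overlapping genes on opposite strands cannot be told apart. CD101, an inhibitory receptor of myeloid and T cells, averaged 29.1 ± 1.26 CPM with MS41 and 17.3 ± 0.809 CPM with DMSO at 6 h, and 54.1 ± 1.95 CPM with MS41 and 5.96 ± 0.244 CPM with DMSO at 24 h (SD, n = 3 each). Its change was 2.44 ± 0.08 (adjusted p = 2.5e-28), and here the lower DMSO level at 24 h (-1.54) was the larger component. ALOX5AP, which presents arachidonic acid to the leukotriene-forming lipoxygenase, changed by 2.21 ± 0.07 and PTAFR, the receptor of platelet-activating factor, by 2.11 ± 0.11. In these 5 genes the MS41 and DMSO libraries did not overlap at either time. The rule for naming genes by class required this wherever an effect was called, so it is no result about them. Over all 22711 genes tested, the libraries did not overlap for 8492 at 6 h and for 11406 at 24 h.

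**Figure D2:**
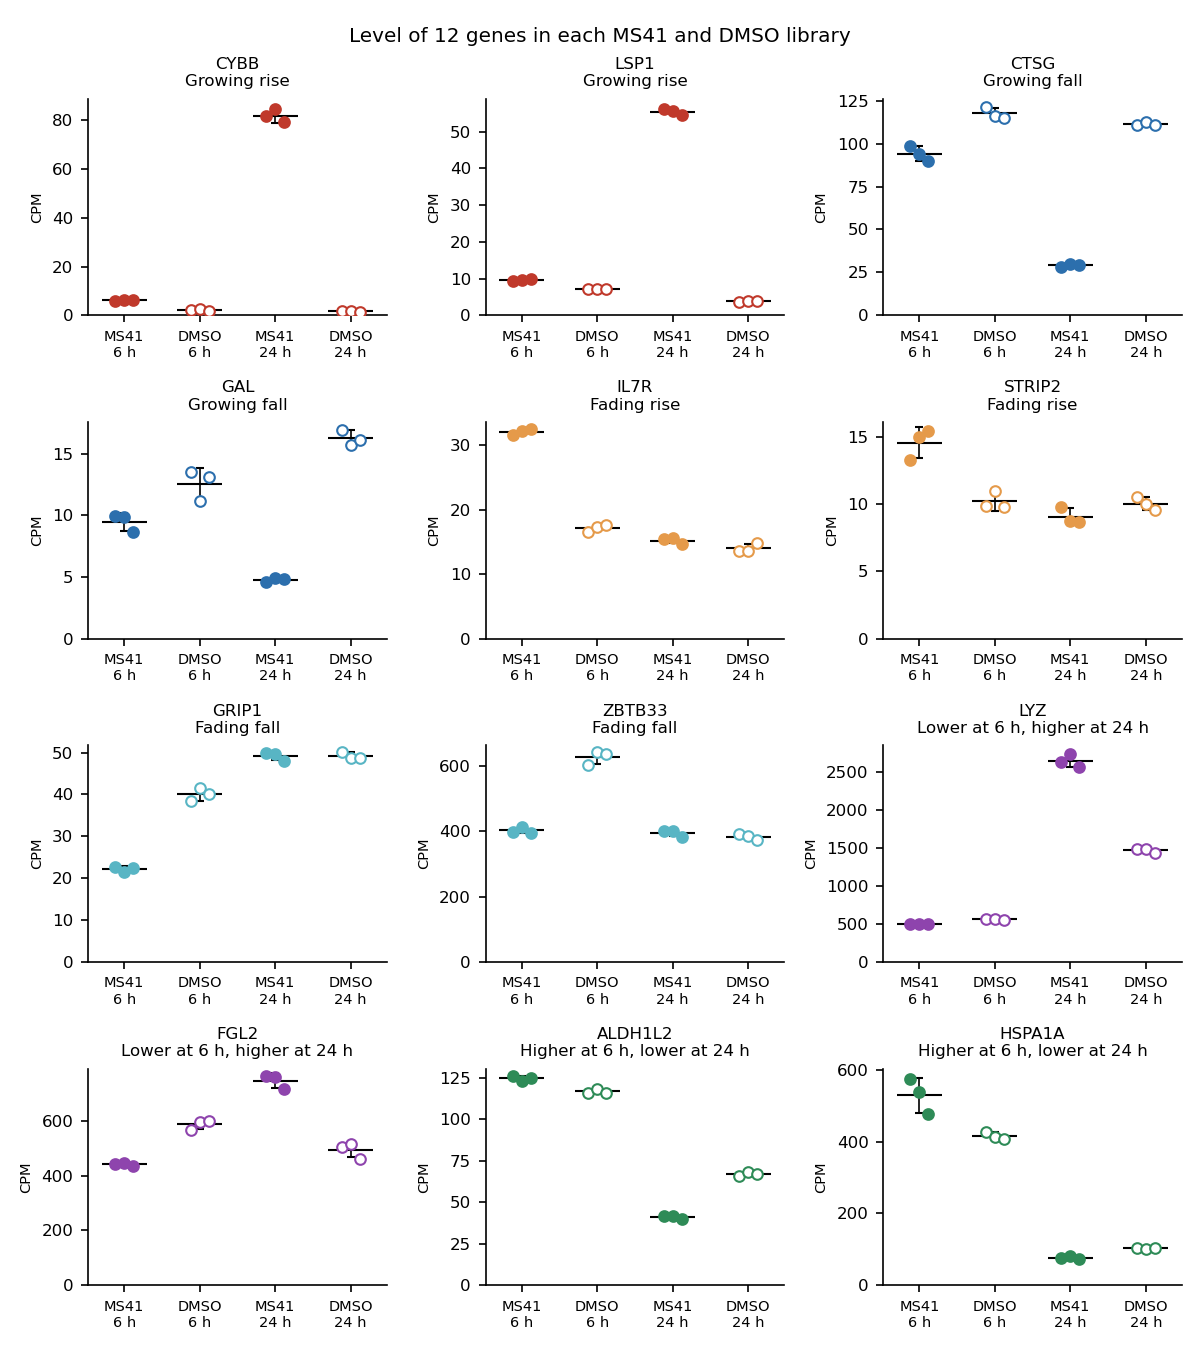
The level of 12 genes, a pair from each class, in CPM (linear axes from 0) in each MS41 (filled) and DMSO (open) library at 6 and 24 h. Bars show the mean and SD of 3 libraries. CYBB and LSP1 are highest with MS41 at 24 h among the 4 groups, GRIP1 and ZBTB33 differ between MS41 and DMSO at 6 h and overlap or nearly meet at 24 h, and LYZ, FGL2, ALDH1L2 and HSPA1A switch order between the times.

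Lists of genes by function were then read across, each against the background of 11.9% called higher and 14.5% called lower. Among phagocyte receptors 12 of 21 measured members were called higher and 1 lower, with a median change of 0.81. The signalling adaptors TYROBP and FCER1G, which transmit signals from such receptors, had changes of 0.81 and 0.95. The complement receptor C3AR1 was at 1.79 and the inhibitory lectin CLEC12A at 1.65. FCGR2B, an inhibitory IgG receptor whose sequence is close to that of its FCGR2 relatives, had 0.236, 0.295 and 0.325 CPM with MS41 and 0.184, 0.123 and 0.0818 CPM with DMSO at 6 h. The 24 h libraries held 2.41, 2.44 and 2.38 CPM with MS41 and 0.0341, 0.0912 and 0.0721 CPM with DMSO. It was low in all groups but MS41 at 24 h, and its change was 4.04 ± 0.53 (adjusted p = 3.8e-08). FCGR1A, the high-affinity IgG receptor, was a fading fall, with a change of 0.30.

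Adhesion molecules moved the same way. Of 15 measured leukocyte integrins and related adhesion genes, 13 were called higher, with a median of 0.69. ITGAM, the alpha chain of the complement-binding integrin Mac-1, had 1.71, 2.35 and 2.47 CPM with MS41 and 1.29, 1.32 and 0.914 CPM with DMSO at 6 h. At the later time it had 10.9, 11.98 and 12.1 CPM with MS41 and 0.981, 1.09 and 0.959 CPM with DMSO, a change of 2.64 ± 0.21 (adjusted p = 6.3e-14). Its groups were separate at both times but close together at 6 h. ITGAX, ITGB7 and ICAM3 followed at 2.22, 1.82 and 1.74, while ITGB2, the shared beta chain of the leukocyte integrins, changed by 0.69 and ITGAL by 0.36. ITGAL was one of the reversed genes, with effects of -0.26 at 6 h and 0.10 at 24 h. Toll-like receptors and their adaptors had 10 of 17 called higher and 1 lower (median 0.55). TLR8 led them at 3.48 ± 0.66, followed by LY96, the TLR4 co-receptor, at 1.57 ± 0.39, and TLR6 and TLR10 at 1.37 and 1.30. TLR8 and LY96 were low: with DMSO, TLR8 averaged 0.149 CPM at 6 h and 0.0528 CPM at 24 h, and LY96 0.445 and 0.311 CPM. With MS41 at 24 h they averaged 2.58 and 1.19 CPM. TLR2 reversed from -0.24 at 6 h to 0.32 at 24 h, and the signalling kinase IRAK1 was the member called lower, at -0.32. Among S100 proteins and annexins 11 of 17 were called higher (median 0.58), with S100A8 at 2.12, S100A9 at 1.71 and ANXA1 at 1.63.

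Growth factor and cytokine receptors had 14 of 18 called higher (median 0.34). CSF1R, the receptor of macrophage colony-stimulating factor, had 34.2, 33.9 and 34.2 CPM with MS41 and 24.2, 24.5 and 23.1 CPM with DMSO at 6 h. At 24 h it had 89.7, 94.4 and 87.1 CPM with MS41 and 25.8, 24.2 and 26.4 CPM with DMSO. The separation was clear at 6 h and larger at 24 h, with a change of 1.31 ± 0.06 (adjusted p = 1.6e-21). KIT, the stem cell factor receptor and a marker of immature cells, had a growing rise of 1.36 ± 0.07 (adjusted p = 7.5e-20), and CSF3R, the G-CSF receptor, of 1.08. Lysosomal genes had 26 of 36 called higher (median 0.26). PSAP, the precursor of activators of lysosomal lipid breakdown, had 72.5, 67.5 and 67.2 CPM with MS41 and 70.0, 68.0 and 68.1 CPM with DMSO at 6 h, where the groups overlapped. At the later time the gene had 184, 192 and 176 CPM with MS41 and 84.3, 87.0 and 86.8 CPM with DMSO, so the whole of its change of 1.09 ± 0.05 (adjusted p = 2.4e-23) lay in the later interval. The cathepsin genes CTSB, CTSS and CTSH changed by 0.97, 0.87 and 0.60, GRN by 0.84, and CD68 and LAMP1 were not called, at -0.24 and 0.05.

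The azurophil granule, the enzyme store that neutrophil precursors fill at the promyelocyte stage, did not move as a block: 7 of 15 measured genes were called higher and 2 lower, with a median of 0.25. CTSG, the granule protease cathepsin G, was the largest growing fall by the rule used to name genes. It had 98.5, 94.2 and 89.97 CPM with MS41 and 121, 116 and 115 CPM with DMSO at 6 h. After 24 h the gene had 27.9, 29.9 and 29.1 CPM with MS41 and 111, 113 and 111 CPM with DMSO. The groups were apart at both times and much farther at 24 h, and the change was -1.62 ± 0.05 (adjusted p = 5.1e-29). ELANE and PRTN3, 2 other granule proteases, were lower at both times and their changes of -0.05 each were not called, whereas MPO, the granule peroxidase, had a change of 0.49 and RNASE2 of 0.61. LYZ, lysozyme, reversed and is described with the other reversed genes.

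Genes of antigen presentation moved far. MHC class II genes had 11 of 13 called higher, with a median change of 2.01 and a highest of 4.27. The highest was that of HLA-DQA1 (SE 0.85), which was near 0 in all groups but MS41 at 24 h. It averaged 0.0628 CPM with MS41 and 0.0537 CPM with DMSO at 6 h, and 1.49 CPM with MS41 and 0.0668 CPM with DMSO at 24 h. CIITA, the transactivator on which MHC class II transcription depends, had 12.3, 11.7 and 12.9 CPM with MS41 and 7.14, 6.33 and 6.65 CPM with DMSO at 6 h. At 24 h it had 57.4, 51.8 and 56.0 CPM with MS41 and 8.79, 9.29 and 9.65 CPM with DMSO. CIITA was thus already separated at 6 h, and its change was 1.70 ± 0.09 (adjusted p = 3.8e-19). HLA-DPB1, a chain of one of the class II molecules, was not: it had 0.227, 0.400 and 0.298 CPM with MS41 and 0.403, 0.320 and 0.342 CPM with DMSO at 6 h, overlapping, and 4.32, 4.76 and 4.44 CPM with MS41 against 0.571, 0.473 and 0.440 CPM with DMSO at 24 h, apart. Its change was 3.40 ± 0.35 (adjusted p = 9e-11). CD74, the invariant chain, changed by 1.53, the peptide-loading genes HLA-DMA and HLA-DMB by 1.89 and 3.07, and HLA-DRB1 by 1.96. HLA-DOB and IFI30 were not called, at -0.16 and 2.01 (adjusted p = 0.81 and 0.29). Classical HLA genes are polymorphic and similar to each other, so reads can be split between them. MHC class I genes had 14 of 20 called higher and 1 lower, with a median of 0.33, led by the peptide-trimming ERAP2 at 1.19, HLA-E at 0.67 and B2M at 0.62.

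Interferon-induced genes had 25 of 48 called higher and 4 lower (median 0.44). Antiviral effectors were among the rises, with OAS1 at 1.75, SAMD9L at 1.65, IFI6 at 1.53, GBP2 at 1.43, STAT2 at 0.78 and the RNA sensors DDX58 and IFIH1 at 0.45 and 0.35. The 4 called lower included all 3 measured IFITM genes, which code for membrane proteins that restrict virus entry: IFITM1 at -0.80, IFITM2 at -0.46 and IFITM3 at -0.41. The remaining one was LGALS9 at -0.25. Promoter stretches of 3 genes are shown because many genes of these lists moved together and share a short word. They were picked among growing rises that hold this word before the start. The core of the interferon-stimulated response element (GAAA, any 2 bases, GAAA) was searched on both strands in 300 bases around the gene start (250 before and 50 after) and was found in 23 of 35 interferon-induced genes with a promoter in the RefSeq table, in 9 of 16 MHC class I genes and in 3.10% of all 11547 tested genes with one. The stretches are from RefSeq, GRCh38.p14, in the direction of the gene, with every match in capitals, at chr2:162318685-162318735 (minus strand) for IFIH1, chr7:93118076-93118145 (minus) for SAMD9 and chr15:44711349-44711418 (plus) for B2M:
IFIH1: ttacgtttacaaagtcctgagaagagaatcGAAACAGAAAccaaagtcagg
SAMD9: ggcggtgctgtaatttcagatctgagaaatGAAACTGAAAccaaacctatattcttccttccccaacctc
B2M: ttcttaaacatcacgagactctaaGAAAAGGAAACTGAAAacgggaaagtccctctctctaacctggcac
The change of these genes was 0.35 for IFIH1, 0.24 for SAMD9 and 0.62 for B2M. The B2M stretch holds 2 overlapping matches. A match describes letters, not binding. The fading falls held the word in 17 of 197 promoters (8.63%), the growing rises in 64 of 1544 (4.15%) and the growing falls in 66 of 2131 (3.1%).

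**Figure D3:**
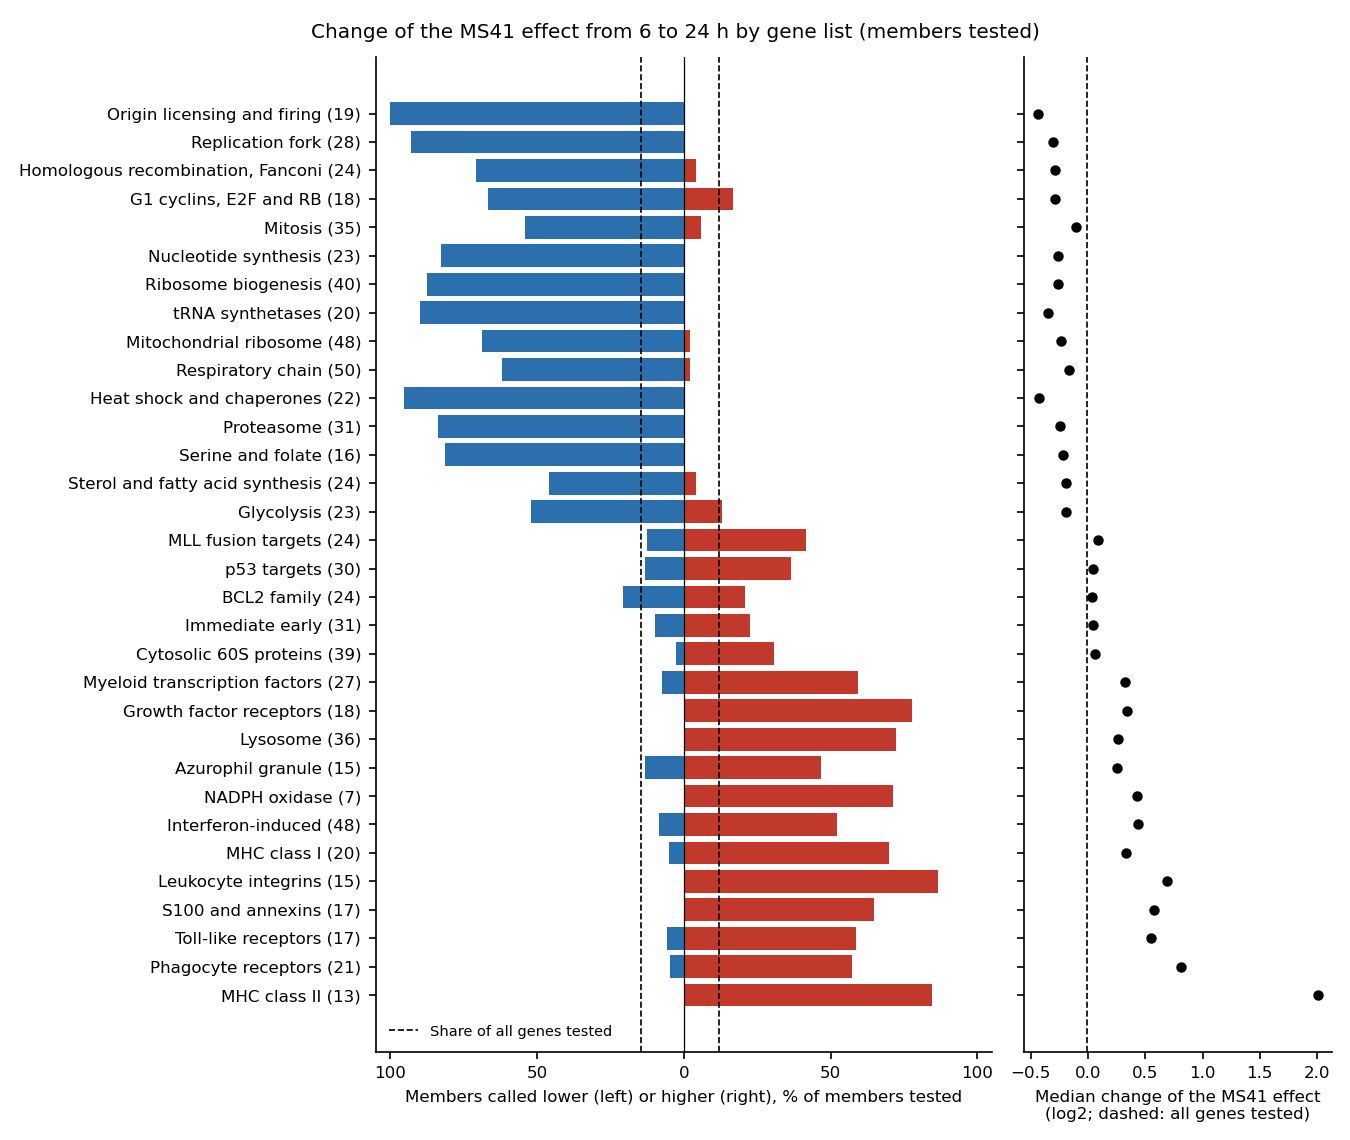
For 32 gene lists, with the number of members tested in brackets, the left panel gives the share of members called lower (blue, to the left) and higher (red, to the right) for the change of the MS41 effect, with the shares over all genes tested as dashed lines (14.5% lower, 11.9% higher). The right panel gives the median change (log2), which runs from -0.44 for origin licensing to 2.01 for MHC class II.

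Genes of DNA replication moved the other way, and many of them reversed. Origin licensing and firing is the loading and activation of the MCM helicase at sites where replication starts. All 19 measured genes of this process were called lower, against 14.5% of all genes tested, with changes between -0.72 and -0.21 and a median of -0.44. In 13 of the 19 the effect was called higher at 6 h and lower at 24 h. MCM10, which helps to activate the helicase (chromosome 10, 13161554 to 13211104), had 127, 131 and 125 CPM with MS41 and 109, 112 and 110 CPM with DMSO at 6 h. By 24 h it had 109, 107 and 110 CPM with MS41 and 154, 153 and 155 CPM with DMSO. The order of the groups was opposite at the 2 times with no overlap at either, and the change was -0.72 ± 0.04 (adjusted p = 2.9e-20). CDC6, which recruits the helicase, had 107, 102.2 and 99.4 CPM with MS41 and 84.2, 89.0 and 89.2 CPM with DMSO at 6 h, and 82.9, 82.7 and 74.7 CPM with MS41 against 112, 109 and 106 CPM with DMSO at 24 h. It too switched order, with a change of -0.68 ± 0.05 (adjusted p = 9.7e-16). The helicase subunits MCM2, MCM4, MCM6 and MCM7 reversed with changes of -0.44, -0.44, -0.56 and -0.35, and MCM3 and MCM5 were fading rises at -0.21 and -0.29. Over the list the median difference between 24 and 6 h was -0.16 in MS41 cells and 0.28 in DMSO cells, so the larger component was a higher level in DMSO cells at 24 h.

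The replication fork, the complex that copies DNA, had 26 of 28 measured genes called lower, with a median of -0.31, and 12 of them reversed. CHAF1B, a histone chaperone behind the fork that overlaps MORC3, had 52.4, 49.2 and 51.6 CPM with MS41 and 40.6, 40.0 and 42.5 CPM with DMSO at 6 h, and 41.3, 41.3 and 42.3 CPM with MS41 and 53.02, 53.02 and 52.5 CPM with DMSO at 24 h. The groups did not overlap at either time and switched order, and the change was -0.66 ± 0.05 (adjusted p = 3.8e-15). PCNA, the sliding clamp, changed by -0.23 and DNMT1, the maintenance DNA methyltransferase, by -0.15. RPA3 and PRIM2 were not called, at -0.10 and -0.06. Homologous recombination and Fanconi anaemia repair genes had 17 of 24 called lower and 1 higher (median -0.29), with BRCA1 at -0.38 and EXO1 at -0.48 among the reversed ones and FANCD2 at 0.13 the one called higher, a call lost with the GC trend removed. G1 cyclins, their kinases and E2F factors had 12 of 18 called lower and 3 higher (median -0.29). E2F1, the transcription factor that drives entry into S phase, had 32.8, 31.3 and 32.0 CPM with MS41 and 25.7, 24.7 and 24.7 CPM with DMSO at 6 h, and 26.8, 27.6 and 25.1 CPM with MS41 and 31.7, 32.8 and 32.1 CPM with DMSO at 24 h. Its order reversed, with a change of -0.64 ± 0.06 (adjusted p = 1.3e-11). The 3 called higher were the retinoblastoma relatives RB1 and RBL2, at 0.19 and 0.12, and the cyclin CCND2 at 0.24. Mitotic genes had 19 of 35 called lower and 2 higher, with a median of -0.11, and in that list the median difference between 24 and 6 h was -0.16 in MS41 cells and -0.06 in DMSO cells. Deposited counts come from polyadenylated RNA, in which most replication histone transcripts are poorly captured, and of 43 measured histone genes 3 were called lower and 1 higher.

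Promoter stretches of some of these genes are shown because the list moved almost as a whole. They were picked among reversed licensing and fork genes that hold a word searched here before the start. E2F1 and E2F2 were added from the fixed set of named genes, a choice made with earlier results of these data known. The stretches therefore do not stand for the lists as a whole. MCM10 and CDC6, which had larger changes, are not among them. The E2F words TTTCCCGC, TTTCGCGC, TTTGCCGC and TTTGGCGC were searched on both strands in the same 300 bases. At least 1 of these words was found in 9 of 16 licensing genes, 10 of 25 fork genes, 31 of 124 genes that reversed from higher to lower (25.0%) and 27 of 188 fading rises (14.4%), against 5.20% of all tested genes with a promoter, 4.66% of the growing rises and 5.91% of the growing falls. The stretches are from RefSeq, GRCh38.p14, in the direction of the gene, with every match in capitals, at chr2:135876492-135876559 (minus) for MCM6, chr16:85688955-85689015 (minus) for GINS2, chr7:100101398-100101436 (minus) for MCM7, chr19:4909457-4909500 (plus) for UHRF1, chr20:33686386-33686435 (minus) for E2F1 and chr1:23531238-23531305 (minus) for E2F2:
MCM6: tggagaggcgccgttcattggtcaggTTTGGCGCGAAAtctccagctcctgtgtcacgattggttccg
GINS2: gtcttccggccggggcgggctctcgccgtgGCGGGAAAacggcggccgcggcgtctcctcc
MCM7: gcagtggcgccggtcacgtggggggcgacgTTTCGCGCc
UHRF1: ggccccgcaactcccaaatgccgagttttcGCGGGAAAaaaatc
E2F1: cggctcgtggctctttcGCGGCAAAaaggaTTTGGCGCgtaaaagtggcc
E2F2: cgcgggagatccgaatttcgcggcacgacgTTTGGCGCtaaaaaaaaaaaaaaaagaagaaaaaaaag
Each stretch holds the match nearest to the gene start with 30 bases on either side, or fewer where the start comes first. In GINS2 and UHRF1 the word lies on the other strand, so its reverse complement is printed. The stretches of MCM6 and E2F1 hold 2 matches each, 1 on either strand, which overlap in MCM6. The changes were -0.56 for MCM6, -0.48 for GINS2, -0.35 for MCM7, -0.57 for UHRF1, -0.64 for E2F1 and -0.62 for E2F2. All but E2F2 were reversed genes, and E2F2 was a fading rise.

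**Figure D4:**
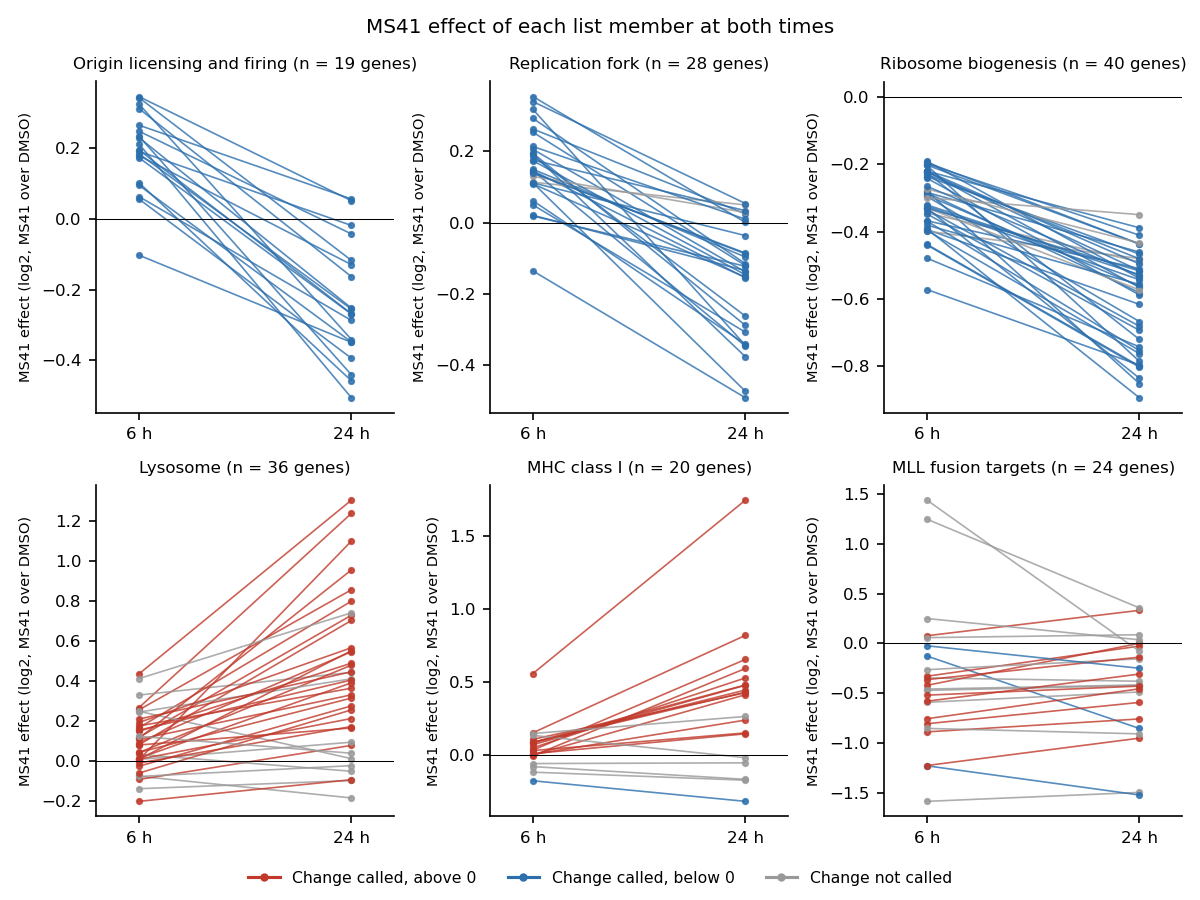
The MS41 effect (log2, MS41 over DMSO) of each measured member of 6 gene lists at 6 and 24 h, with a line per gene coloured by whether its change was called above 0 (red), below 0 (blue) or not called (grey). Licensing and fork genes mostly cross the line at 0 downwards, ribosome biogenesis genes lie mostly below 0 and lower at 24 h than at 6 h, and MLL fusion targets have a median effect of -0.44 at 6 h and -0.40 at 24 h.

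The remaining genes that reversed from higher to lower included ALDH1L2, HSPA1A and PKMYT1. ALDH1L2, a mitochondrial folate enzyme that overlaps C12orf45 on the other strand, had 126, 123 and 125 CPM with MS41 and 116, 118 and 116 CPM with DMSO at 6 h, and 41.6, 41.4 and 40.1 CPM with MS41 and 65.9, 68.0 and 67.1 CPM with DMSO at 24 h. Levels were lower at 24 h in both, more so with MS41, and the change was -0.80 ± 0.04 (adjusted p = 1.8e-20). HSPA1A, an inducible heat shock protein whose coding sequence is nearly identical to that of HSPA1B, had 574, 538 and 477 CPM with MS41 and 428, 413 and 409 CPM with DMSO at 6 h, and 75.5, 81.3 and 73.4 CPM with MS41 and 104.5, 101 and 103 CPM with DMSO at 24 h. DMSO cells alone dropped by 2.01 between the times on the log2 scale, so the change of -0.77 ± 0.09 (adjusted p = 1.4e-06) sits on a much larger drift. HSPA1B had the same change of -0.77. Heat shock and chaperone genes as a list had 21 of 22 called lower, with a median of -0.43. HSPH1, HSP90AA1 and the mitochondrial chaperonin HSPD1 had growing falls of -0.80, -0.71 and -0.58, and the subunit CCT8 was the member not called, at 0.01. PKMYT1, a kinase that restrains mitotic entry, changed by -0.69 ± 0.10 (adjusted p = 3.7e-07).

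Genes that reversed from lower to higher were led by LYZ, the bactericidal enzyme of macrophages (chromosome 12, 69348341 to 69354234). It had 494, 491 and 491 CPM with MS41 and 563, 563 and 555 CPM with DMSO at 6 h. At the later time it had 2627, 2733 and 2566 CPM with MS41 and 1482, 1483 and 1426 CPM with DMSO. LYZ was higher at 24 h in both and the gap changed sides, with a change of 1.04 ± 0.03 (adjusted p = 2.4e-28). FGL2, a fibrinogen-like protein of macrophages, had 441, 448 and 434 CPM with MS41 and 566, 597 and 598 CPM with DMSO at 6 h, and 765, 759 and 715 CPM with MS41 and 506, 514 and 462 CPM with DMSO at 24 h. Here MS41 cells moved up and DMSO cells moved slightly down, and the change was 1.01 ± 0.05 (adjusted p = 3.9e-18). The sialyltransferase ST8SIA4 changed by 0.80 ± 0.04. FOSL2, a member of the AP-1 family, changed by 0.79 ± 0.04, nearly all of it the end of a fall, since its effect was -0.70 at 6 h and 0.09 at 24 h. TMSB4XP8, a processed pseudogene that can take reads of its abundant parent TMSB4X, changed by 0.79 ± 0.08 and is uncertain for that reason. The ETS factor FLI1 reversed as well, with a change of 0.36 ± 0.04 (adjusted p = 1.4e-09).

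Among fading rises IL7R, the receptor chain for interleukin 7, had 31.5, 32.3 and 32.5 CPM with MS41 and 16.6, 17.3 and 17.6 CPM with DMSO at 6 h. At 24 h it had 15.4, 15.5 and 14.7 CPM with MS41 and 13.5, 13.7 and 14.8 CPM with DMSO. The groups were apart at 6 h and overlapped at 24 h, and the change was -0.78 ± 0.08 (adjusted p = 6.1e-11). STRIP2, a scaffold of a phosphatase complex, behaved alike with a change of -0.66 ± 0.11 (adjusted p = 2.8e-06). E2F2 and the cyclin CCNE2, which partners CDK2 at the start of S phase, differed in kind. CCNE2, which overlaps INTS8 on the other strand, had 38.0, 38.1 and 34.8 CPM with MS41 and 24.8, 24.3 and 24.7 CPM with DMSO at 6 h, and 34.8, 36.8 and 35.9 CPM with MS41 and 35.0, 34.6 and 34.5 CPM with DMSO at 24 h. The MS41 level was alike at both times and the DMSO level reached it, for a change of -0.54 ± 0.06 (adjusted p = 9.3e-10). E2F2 changed by -0.62 ± 0.08 (adjusted p = 6.3e-09), and CCHCR1, a coiled-coil protein, by -0.52 ± 0.11 (adjusted p = 0.00016).

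Fading falls showed the opposite course. GRIP1, a scaffold of synaptic receptors that overlaps the helicase gene HELB on the other strand, had 22.7, 21.5 and 22.5 CPM with MS41 and 38.5, 41.6 and 40.0 CPM with DMSO at 6 h. At the later time the gene had 50.03, 49.7 and 48.1 CPM with MS41 and 50.2, 48.8 and 48.8 CPM with DMSO. A clear fall at 6 h was gone at 24 h, where the groups overlapped, and the change was 0.85 ± 0.06 (adjusted p = 1.3e-15). ZBTB33, which codes for the methyl-DNA binding factor Kaiso, had 400, 412 and 397 CPM with MS41 and 604, 644 and 638 CPM with DMSO at 6 h, and 400, 400 and 383 CPM with MS41 and 392.02, 387 and 373 CPM with DMSO at 24 h. Its MS41 level was alike at both times and its DMSO level was lower at 24 h, so the change of 0.68 ± 0.04 (adjusted p = 7.6e-19) lay in the DMSO cells. The homeobox gene HMX3 changed by 0.66 ± 0.09, the glycosyltransferase B3GNT7 by 0.59 ± 0.04 and the glucocorticoid-induced TSC22D3 by 0.64 ± 0.09. Fading falls had the lowest share of protein-coding genes among the 6 classes, at 73.5%, where the other classes ranged from 88.8 to 98.0%. The share was 90.3% of all called genes and 61.3% of all genes tested, so that of the fading falls was still above the tested background.

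Known targets of MLL fusions had a median effect of -0.44 at 6 h and -0.40 at 24 h. Of 24 measured, 10 were called higher, 9 of them as fading falls, and 3 lower, with a median change of 0.09. MYC, the growth regulator, had 184, 177 and 163 CPM with MS41 and 406, 413 and 407 CPM with DMSO at 6 h, and 230, 238 and 224 CPM with MS41 and 451, 440 and 448 CPM with DMSO at 24 h. It stayed well below DMSO at both times, by less at 24 h. BCL2, an inhibitor of apoptosis, had 189, 191 and 203 CPM with MS41 and 264, 260 and 257 CPM with DMSO at 6 h, and 308, 311 and 300 CPM with MS41 and 306, 314 and 298 CPM with DMSO at 24 h. BCL2 overlapped DMSO again at 24 h, with a change of 0.42 ± 0.04 (adjusted p = 4e-13). HOXA10, which overlaps HOXA10-AS on the other strand, went against this course: it had 12.7 ± 0.996 CPM with MS41 and 29.8 ± 0.452 CPM with DMSO at 6 h, and 12.7 ± 0.443 CPM with MS41 and 36.5 ± 1.16 CPM with DMSO at 24 h, for a change of -0.29 ± 0.07 (adjusted p = 0.00066). The transcription factor SATB1 changed by 0.30, the demethylase-like JMJD1C by 0.30 (its effect was -0.33 at 6 h and -0.03 at 24 h), the splicing regulator MBNL1 by 0.27 and LMO2 by 0.23, all called. MEF2C, CDK6 and PBX3 were not called, at 0.04, -0.03 and 0.10. MEIS1 and FLT3 were called at 0.13 and 0.09 (adjusted p = 0.031 and 0.023), and both lost the call when some single libraries were left out.

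Transcription factors of the myeloid lineage had 16 of 27 called higher and 2 lower (median 0.32), in 2 kinds. IRF8, which directs monocyte and dendritic cell fate, had 444, 434 and 436 CPM with MS41 and 709, 719 and 721 CPM with DMSO at 6 h, and 578, 592 and 559 CPM with MS41 and 752, 762 and 751 CPM with DMSO at 24 h. It was below DMSO at both times by less at 24 h, with a change of 0.32 ± 0.03 (adjusted p = 1.7e-11). CEBPA, the factor that commits progenitors to the myeloid line, was likewise a fading fall at 0.26 ± 0.06 (adjusted p = 0.0005). The other kind grew as rises. PRDM1, the repressor BLIMP1, had 16.6 ± 0.976 CPM with MS41 and 6.37 ± 0.147 CPM with DMSO at 6 h, and 28.0 ± 0.527 CPM with MS41 and 6.59 ± 0.622 CPM with DMSO at 24 h, a change of 0.71 ± 0.11 (adjusted p = 6.5e-07). BCL6 and NFE2 changed by 1.30 and 0.82. SPI1, which codes for PU.1, had overlapping groups at 6 h and a change of 0.26 ± 0.06 (adjusted p = 0.00083), and KLF2 was called lower at -0.82. The cyclin-dependent kinase inhibitor CDKN1B had 61.1 ± 2.59 CPM with MS41 and 145 ± 3.14 CPM with DMSO at 6 h, and 61.6 ± 3.05 CPM with MS41 and 117 ± 2.43 CPM with DMSO at 24 h, so that its change of 0.32 ± 0.04 (adjusted p = 8.5e-08) was a shift of the DMSO level. CDKN1A had a change of 0.37 ± 0.06 (adjusted p = 2.5e-06), again with a near-constant MS41 level of 42.3 ± 1.12 CPM at 6 h and 41.5 ± 1.45 CPM at 24 h, against 37.3 ± 2.17 CPM with DMSO at 6 h and 28.3 ± 0.846 CPM with DMSO at 24 h. MLLT1 itself was not called, with a change of -0.09 (adjusted p = 0.13), and as a transcript it is no measure of the degraded protein.

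Biosynthetic genes held growing falls. Ribosome biogenesis genes, which make and process ribosomal RNA, had 35 of 40 called lower, all 35 as growing falls, with a median of -0.26. NHP2, a component of pseudouridylating particles that overlaps RMND5B on the other strand, had 50.02, 49.3 and 46.2 CPM with MS41 and 58.95, 53.8 and 54.7 CPM with DMSO at 6 h. After 24 h the gene had 37.0, 40.3 and 37.1 CPM with MS41 and 66.8, 65.7 and 64.7 CPM with DMSO. The groups were apart at both times and more so at 24 h, with a change of -0.58 ± 0.05 (adjusted p = 5.9e-12). BOP1 and MYBBP1A changed by -0.57 and -0.50. Amino-acyl tRNA synthetases had 18 of 20 called lower (median -0.35), nucleotide synthesis 19 of 23 lower (median -0.26), the proteasome 26 of 31 lower (median -0.25), the large subunit of the mitochondrial ribosome 33 of 48 lower and 1 higher (median -0.24) and the nuclear-encoded respiratory chain 31 of 50 lower and 1 higher (median -0.17). Of the 13 mitochondrially encoded genes 0 were called by edgeR, 0 had an unadjusted p below 0.05 and 0 were called by DESeq2, with changes of 0.01 to 0.21 and a median of 0.13. Protein genes of the large cytosolic ribosomal subunit did not follow the biogenesis genes, with 12 of 39 called higher, 1 lower and a median of 0.06, 5 of them reversed from lower to higher. Their many processed pseudogenes can share reads.

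The E-box CACGTG, a word bound by MYC and related factors, was searched in the same promoters because the biogenesis genes moved as a group. It was found in 14 of 33 biogenesis genes, in 8 of 23 lysosomal genes and in 282 of 2131 growing falls (13.2%). It was also in 18 of 115 genes that reversed from lower to higher (15.7%) and in 139 of 1544 growing rises (9.0%), against 9.90% of all tested genes with a promoter. The word reads the same on both strands. The genes shown were picked among growing falls of the biogenesis list that hold the word before the start. The stretches are from RefSeq, GRCh38.p14, at chr12:101280065-101280104 (plus) for UTP20 and chr11:34105584-34105628 (plus) for NAT10, with the match in capitals:
UTP20: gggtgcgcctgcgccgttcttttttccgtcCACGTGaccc
NAT10: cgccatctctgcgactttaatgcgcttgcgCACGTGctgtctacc
UTP20, part of the small-subunit processome, had a change of -0.35 and NAT10, an RNA acetyltransferase, of -0.28, while the lysosomal list, in which the word was also found, had a median of 0.26. The word GAGGAAGT, a match for PU.1, was in 72 of 1544 growing rises (4.66%), against 2.78% of all tested genes with a promoter.

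Serine and folate metabolism had 13 of 16 called lower (median -0.22), 8 as growing falls, 4 as fading rises and 1 reversed from higher to lower. PSAT1, an enzyme of serine synthesis, had 189, 189 and 185 CPM with MS41 and 199, 211 and 204 CPM with DMSO at 6 h, and 88.3, 89.6 and 84.3 CPM with MS41 and 189, 190 and 183 CPM with DMSO at 24 h. The DMSO level was nearly steady and the change of -0.98 ± 0.04 (adjusted p = 3.4e-23) lay in the MS41 cells. CBS, which makes cystathionine from serine, changed by -1.04 ± 0.12 (adjusted p = 8.4e-10). Further growing falls named by size were the neuropeptide GAL at -1.35 ± 0.11, the dioxygenase-like HPDL at -1.31 ± 0.09, the semaphorin co-receptor PLXNA1 at -1.30 ± 0.09 and the collagen COL27A1 at -1.08 ± 0.09. COL27A1 differed from the others in that its groups overlapped at 6 h, and its DMSO level was higher at 24 h than at 6 h by 0.64. In bulk libraries fewer cells of a kind and less RNA of a gene per cell cannot be told apart.

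The same change was computed with MS41N or PFI-6 in place of DMSO, at the same dose and times. It was called for 5775 genes (25.4%) against MS41N, 2672 higher (11.8%) and 3103 lower (13.7%), and for 5802 genes (25.5%) against PFI-6, 2643 higher (11.6%) and 3159 lower (13.9%). Both comparisons use the same MS41 libraries as the one against DMSO, so their values are given side by side and not as independent evidence. Set against DMSO in the same way, MS41N itself had a change in 4 genes (0.0176%) and PFI-6 in 27 (0.119%), with 1739 and 2470 genes at an unadjusted p below 0.05 and 35 and 186 called by DESeq2. Of the 30 genes named by class, which were picked for a large change against DMSO, 30 were called against MS41N and 28 against PFI-6. Of all 122 named and called genes, 16 were not called against MS41N and 16 were not called against PFI-6, MEIS1 (adjusted p = 0.15 and 0.82) and the histone methyltransferase DOT1L (adjusted p = 0.17 and 0.18) among both. CYBB changed by 4.12 against MS41N and 3.91 against PFI-6, CTSG by -1.56 and -1.46, LYZ by 1.02 and 0.96, MCM10 by -0.69 and -0.61, IL7R by -0.63 and -0.68 and GRIP1 by 0.74 and 0.66. The exceptions against PFI-6 were TSC22D3, at 0.64 against DMSO, 0.35 against MS41N and 0.13 against PFI-6 (adjusted p = 0.30), and CCHCR1, at -0.52, -0.31 and -0.25 (adjusted p = 0.086 against PFI-6). KLF4 changed by 0.53 against DMSO (adjusted p = 0.0077) but by -0.01 against MS41N (adjusted p = 0.98) and -0.35 against PFI-6 (adjusted p = 0.092). By list, licensing genes had 18 of 19 called lower against MS41N and 19 against PFI-6, and MHC class II genes had 11 of 13 called higher against each.

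**Figure D5:**
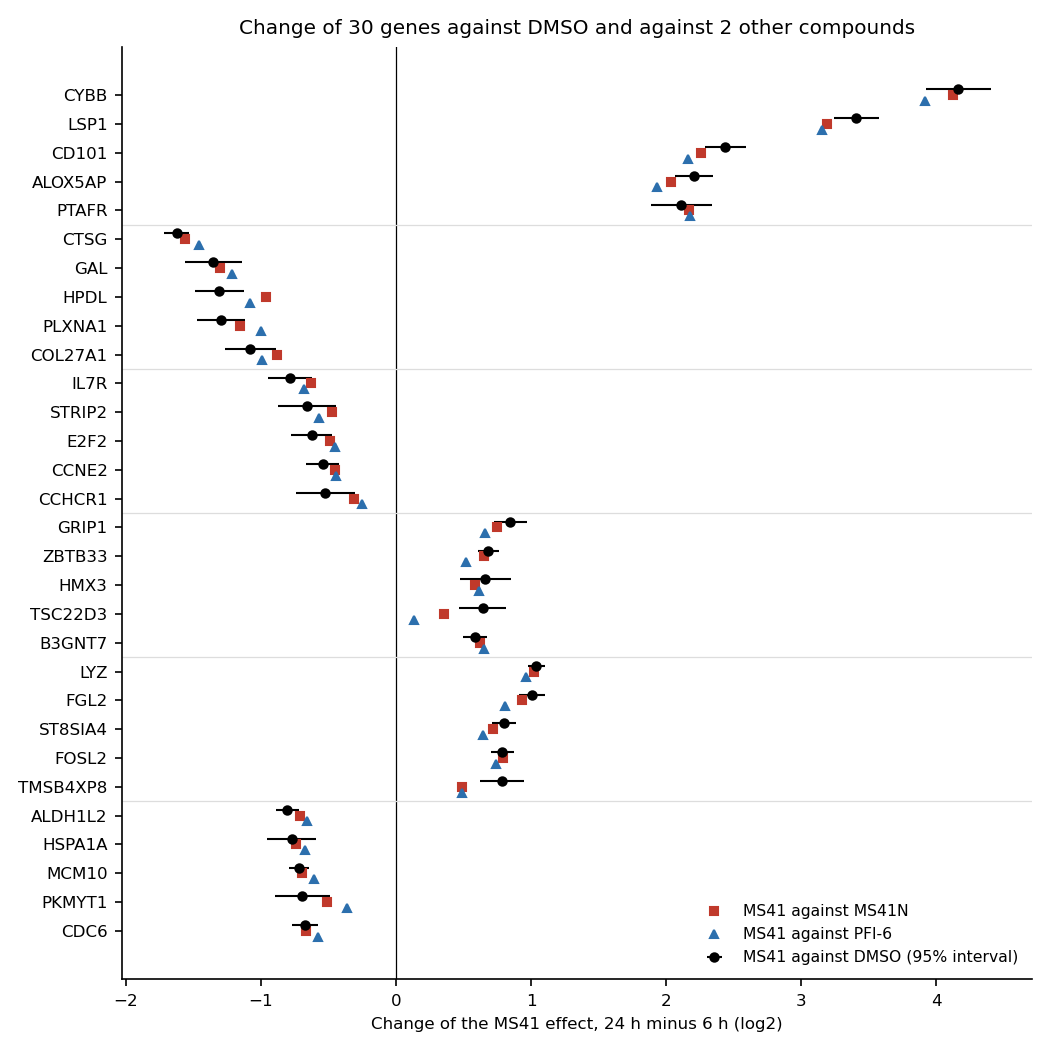
The change of the MS41 effect from 6 to 24 h (log2) of the 30 genes named by class, from top to bottom growing rises, growing falls, fading rises, fading falls, genes reversed from lower to higher and genes reversed from higher to lower. Circles with 95% intervals are against DMSO, squares against MS41N and triangles against PFI-6, drawn without intervals. All 30, picked for a large change against DMSO, lie on the same side of 0 with each of the 3 references. TSC22D3 comes closest to 0, at 0.13 against PFI-6.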

How the data were processed

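Per the submitters' processing notes, reads of polyadenylated RNA were handled with CASAVA 1.8, HISAT2 2.1.0 and HTSeq 0.11.3 on hg38; settings and the strand rule of the counting are not given in the sources used here. The deposited values are raw counts per gene (58721 genes), with no normalization by the authors. From there, genes with low counts were dropped (filterByExpr of edgeR 4.0.16, minimum count 10), leaving 22711. All 24 MV4;11 compound libraries, of 102345811 to 156479711 counts, were scaled by TMM and fitted together with edgeR's robust quasi-likelihood model with 1 mean per group, which gave 16 residual degrees of freedom and a biological coefficient of variation of 4.77%. The change of the effect is a contrast of 4 group means. All 22711 genes entered the Benjamini-Hochberg adjustment of p, and a gene is called at an adjusted p below 0.05. SE is the absolute change divided by the square root of the test's F. CPM use TMM-scaled library sizes. The script was tested on simulated data.

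Called genes were classed by the effects at 6 and 24 h. Reversed means both effects called with opposite signs, growing a called 24 h effect larger in size than at 6 h, and fading a called 6 h effect larger than at 24 h. Named genes are, per class, the 5 largest changes with an average log2 CPM of at least 3 and non-overlapping libraries wherever the effect is called, the 2 largest called members of each of 48 gene lists, and a fixed set of leukaemia and myeloid genes; further list members are given as examples. Members and lists were chosen with earlier results of these data known, and no set test was run. Gene positions and overlaps are from GENCODE release 29, promoter sequences from RefSeq. In all, 11547 of the 22711 tested genes had a promoter in that table. Alternatives were size factors, low-count filter, replicate number as a block, libraries in the fit, thresholds, GC trend, DESeq2 1.42.0 and leaving out each library. R 4.3.3, Python 3.11.15 and matplotlib 3.10.9 were used.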

Additional observations from a re-analysis of the deposited data

Results flagged for a closer look

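The MS41 effect differed between 6 and 24 h, by the test of that difference itself, for 6001 of the 22711 genes tested. Genes with opposite, separately called effects at the 2 times have a direction that depends on the time sampled. The 5 named by size that were lower with MS41 at 6 h and higher at 24 h were LYZ (1.04), FGL2 (1.01), ST8SIA4 (0.80), FOSL2 (0.79) and TMSB4XP8 (0.79), as log2 changes of the effect. The 5 that were higher with MS41 at 6 h and lower at 24 h were ALDH1L2 (-0.80), HSPA1A (-0.77), MCM10 (-0.72), PKMYT1 (-0.69) and CDC6 (-0.68). The effects at single times were small in several of them, as in FOSL2 at 24 h (0.09) and ALDH1L2 at 6 h (0.10). PKMYT1 overlaps KREMEN2 and PAQR4 on the other strand. With 3 libraries in a group, no outlier test was made.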

How the results depend on the processing

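The 6001 genes called became 5944 with size factors by RLE, 5816 without the low-count filter, 5786 with the 12 libraries alone, 6427 with the GC trend removed, 4528 at an adjusted p below 0.01, 5928 with DESeq2 and 5456 to 5763 with 1 library left out. With the replicate block they were 6013, and the block moved no count of the main comparison or its classes by over 1.5 times. Same-numbered libraries correlated between -0.106 and 0.225, with 5 of 18 pairs above 0.1. Differently numbered libraries correlated between -0.229 and 0.219. The same-numbered pairs of MS41 and DMSO at 24 h were at 0.049, 0.115 and 0.197. The labels do not say whether a number marks a shared culture or day. These correlations cannot decide it, because deviations within so small a group are tied to each other. Requiring a change of 1 left 668. At an adjusted p below 0.01 the fading rises were 158, the fading falls 208, the genes reversed from lower to higher 100 and those reversed from higher to lower 97. Across single left-out libraries the classes held 2017 to 2103 growing rises, 2423 to 2818 growing falls, 197 to 245 fading rises, 271 to 338 fading falls, and 132 to 174 and 123 to 155 reversed genes. The counts against MS41N (5232 to 5583) and PFI-6 (5311 to 5701) also stayed within 1.5 times. The own counts of MS41N and PFI-6 did not, reaching 75 and 200 without the filter and 16 and 55 with the block.

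Of 130 named genes, 10 lost their call under some alternative and 1 gained one. FLT3 lost it with the GC trend removed (adjusted p = 0.0536) and without DMSO library 1 or MS41 library 1 at 6 h, or DMSO library 3 or MS41 library 2 at 24 h (adjusted p 0.0535 to 0.0738). MEIS1 lost it with the GC trend removed (0.0505) and without DMSO library 3 or MS41 library 1 or 3 at 6 h, or DMSO library 2 or 3 or MS41 library 2 at 24 h (0.0586 to 0.112). PBX3 gained one without the 3rd MS41 library at 24 h (adjusted p = 0.003). MLLT1, not called, stood at 0.007 with the GC trend removed, and CDK6, not called, ranged from -0.066 to 0.013 with 1 library left out, above 0 only without the 3rd MS41 library at 6 h. For these, the cause was not tested. Of 384 list counts under other settings, 8 moved by over 1.5 times, each a count of 5 or fewer genes.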

Other observations

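Several further gene lists held some genes whose effect changed between the times. Their counts are to be read beside 11.9% called higher and 14.5% called lower among all 22711 genes tested. Metallothioneins, which bind zinc and copper, and their regulators had 4 of 10 measured genes called lower. MT1G had 25.9, 25.9 and 27.5 CPM with MS41 and 28.2, 24.7 and 25.7 CPM with DMSO at 6 h, and 15.6, 15.8 and 16.3 CPM with MS41 and 31.4, 31.0 and 32.6 CPM with DMSO at 24 h, overlapping at 6 h and apart at 24 h, with a change of -1.01 ± 0.07 (edgeR adjusted p = 8.4e-16). Amino acid transporters split, 4 of 14 being called higher and 7 lower. SLC7A11, which imports cystine and overlaps SLC7A11-AS1, had a change of 1.51 ± 0.10, with 21.7 ± 0.336 CPM with MS41 and 10.9 ± 0.308 CPM with DMSO at 6 h and 25.9 ± 0.949 CPM with MS41 and 4.56 ± 0.521 CPM with DMSO at 24 h (SD, n = 3). The leucine carrier chains SLC7A5 and SLC3A2 had -0.60 and -0.40, and the glycine transporter SLC6A9, below 1 CPM in every group, had -2.79.

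Apoptosis regulators of the BCL2 family were 5 called higher and 5 lower of 24, and 2 lower without the low-count filter. Over all genes tested the shares were 11.9% higher and 14.5% lower, which also serve the lists below. BAD, called lower at -0.55 (edgeR adjusted p = 0.029), lost its call with the GC trend removed and without any 1 of 7 libraries, which were MS41 library 1 and DMSO libraries 2 and 3 at 6 h and MS41 libraries 1 and 3 and DMSO libraries 1 and 3 at 24 h (-0.66 to -0.47 over all single libraries left out). BMF, which promotes cell death, had 60.2, 57.4 and 60.2 CPM with MS41 and 31.5, 27.9 and 27.0 CPM with DMSO at 6 h, and 90.3, 90.8 and 87.9 CPM with MS41 and 23.3, 21.9 and 22.6 CPM with DMSO at 24 h. It was apart at both times and its change was 0.95 ± 0.06 (edgeR adjusted p = 6.9e-17). Targets of p53 had 11 of 30 called higher and 4 lower, with a median of 0.04, among them BTG2 at 0.58 and AEN at -0.21. Their share called lower was near that of all genes tested. STAT5 and PIM kinase genes had 5 of 14 higher and 4 lower, with JAK2 at 0.43 and PIM2 at -0.34. Glycolysis genes had 12 of 23 lower and 3 higher, with LDHA at -0.48. Sterol and fatty acid synthesis had 11 of 24 lower and 1 higher, with SCD at -0.48 and INSIG1 at 0.20. MYC, its partners and its antagonists had 7 of 10 higher, with a median change of 0.26. Of these, 4 were fading falls, 2 were growing rises and 1 met no class. The median effect of the list was -0.17 at 6 h and 0.06 at 24 h. The largest change was that of the MYC antagonist MXD1, a growing rise, at 0.34.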
